A study of Rattus norvegicus with 56 samples.

Results

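Klk8, Cyp11b1 and Cd200r1 were the 3 genes described here, chosen by their within-animal difference between hippocampus and parietal cortex in the sham animals, which was among the largest of the series. Their members were all array probes whose transcript identifier carries 1 of these rat gene symbols in RefSeq, which gave 4 probes (1 for Klk8, 1 for Cyp11b1 and 2 for Cd200r1) of 45598 probes on the array and 3 genes of 16581 named ones. Gene expression was measured on one-colour Agilent arrays in male Long-Evans rats that had received intermittent theta burst stimulation (iTBS, short bursts of magnetic pulses given through a coil over the head) or a sham procedure with the coil held away from the head. For stimulation or sham, the rats were lightly anesthetized with isoflurane and sedated with dexmedetomidine, which was reversed afterwards. Young rats (Y) had an age of 6 to 7 months. Rats aged 26 to 27 months carried a label of unimpaired (AU) or impaired (AI) cognition. Tissue was collected 48 h later, and dorsal hippocampus and neocortex of the same animal, the latter labelled as parietal cortex, were hybridized to separate arrays. Of the 24 animals, the sham groups Y_Sham, AU_Sham and AI_Sham had 4 each, and there were 4 in Y_iTBS, 5 in AU_iTBS and 3 in AI_iTBS.

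Klk8 encodes neuropsin, a secreted serine protease of the tissue kallikrein family that is known from hippocampal pyramidal neurons. It acts outside the cell on adhesion and matrix proteins and is known for its part in synaptic plasticity. Cyp11b1 encodes the mitochondrial enzyme that completes corticosterone synthesis in the rat adrenal cortex, and the related Cyp11b2 encodes aldosterone synthase. Cd200r1 encodes the inhibitory receptor through which microglia and other myeloid cells respond to CD200, a surface protein of neurons.

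Signals are given as log2 of the processed spot intensity, scaled to equal mean and spread on each array, so that a value of 0 is the mean of all probes of an array and a difference of 1 is a doubling. Levels of different probes are not comparable. The scanner software marks each spot as well above background or not, and on the 56 arrays it marked between 59.3% and 69.7% of probes. A probe was called where limma, fitted over all probes tested, gave an adjusted p under 0.05, and lists of genes were counted as higher or lower by this rule. The tissue labels were checked with lists of region markers. In stimulated animals 13 of 17 hippocampus markers were higher in hippocampus and 1 was lower, and 9 of 16 cortex markers were higher in cortex and 1 was lower, where 17.8% of all 33518 probes tested were called higher in hippocampus and 16.2% in cortex. The first cortex array of AI_iTBS 2 gave the highest cortical Klk8 value and the lowest of one Cd200r1 probe, and the repeat array with its label correlated with the first cortex array of AI_Sham 2 (r = 0.96 over 90 probes that vary between animals) and not with its own (r = -0.14), so that this repeat was left out. Whether the repeat or the first cortex arrays of AI_iTBS 2 and AI_Sham 2 carry a wrong label was not tested. If the first arrays do, these cortical values belong to the other animal. The tissue was bulk, so fewer cells of a type and less RNA per cell cannot be told apart.

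Klk8 was the member with the largest difference and was high in the hippocampus of every animal. Its hippocampal level in sham animals lay between 5.55 and 6.24 (median 6.05, n = 12), and in stimulated animals between 5.57 and 6.23 (median 5.95, n = 12). Its cortical level lay between -2.98 and -0.46 in sham animals (median -1.45) and between -2.58 and 0.07 in stimulated animals (median -1.70). The regions did not overlap in either set. The probe was well above background on 27 of 27 hippocampal arrays and on 25 of 27 cortical arrays, so that Klk8 was dim but measurable in cortex.

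**Figure D1:**
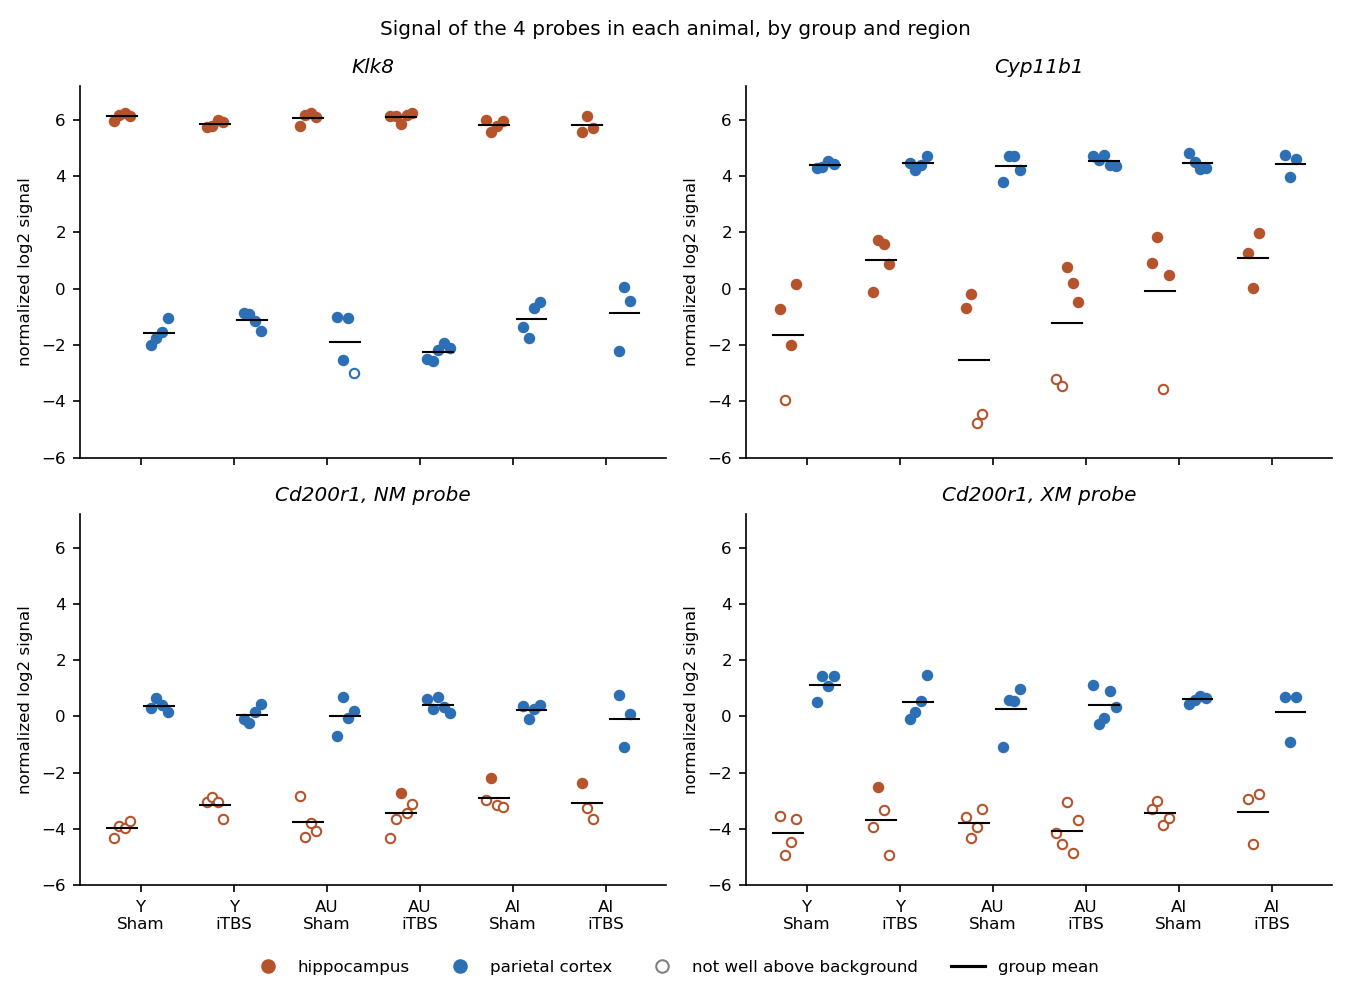
Normalized log2 signal (vertical axis) of the 4 probes in hippocampus and parietal cortex of each animal, by group (horizontal axis). Each point is 1 animal, open points were not well above background and black lines are group means. Klk8 lies above 5.5 in every hippocampus, Cyp11b1 is spread from -4.78 to 1.97 in hippocampus and narrow in cortex, and nearly all hippocampal points of Cd200r1 are open.

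In sham animals, whose values chose the members, the mean within-animal difference of Klk8 (hippocampus minus cortex) was 7.52 ± 0.82 (SD, n = 12), a 183-fold higher signal in hippocampus. Of all probes, 36.2% passed the threshold between the regions in sham animals, and all 4 member probes were chosen by this contrast, so no test is given for it. Among named probes it ranked 3 by this difference, behind Htr5b (7.94) and Nts (7.72) and ahead of Cxcr1 (6.51), so that Klk8 lay just inside a choice of the 3 most skewed. Such ranks are by measured signal, which in the dim region of several of these probes was not above background, so they only describe the choice. The 12 stimulated animals were not used in the choice. There the difference was 7.47 ± 0.94 (SD), between 6.05 in AI_iTBS 2 and 8.72 in AU_iTBS 2, a 178-fold higher signal in hippocampus with a standard error of 0.18 on the log2 scale (limma, adjusted p = 2.78e-17). Klk8 was higher in hippocampus in 12 of 12 stimulated animals. By the same test 34% of all probes differed between the regions in stimulated animals, so that a call alone does not set a gene apart.

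Cyp11b1 showed the opposite skew, with a high and narrow level in cortex and a wide one in hippocampus. Its cortical level lay between 3.78 and 4.82 in sham animals (median 4.37) and between 3.98 and 4.75 in stimulated animals (median 4.51), and the probe was well above background on 27 of 27 cortical arrays. The within-group SD was 0.28 in cortex and 1.89 in hippocampus. In hippocampus the probe was well above background on 21 of 27 arrays and in 18 of 24 animals.

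The hippocampal values of Cyp11b1 differed widely between animals of the same group. In Y_Sham they were -0.73, -3.95, -1.99 and 0.17, and in Y_iTBS -0.13, 1.73, 1.58 and 0.87. In AU_Sham they were -0.69, -0.18, -4.78 and -4.46, and in AU_iTBS -3.20, -3.46, 0.79, 0.22 and -0.47. In AI_Sham they were 0.90, 1.84, -3.57 and 0.49, and in AI_iTBS 1.25, 0.03 and 1.97. Animals at the background level stood beside animals with clear signal in Y_Sham, AU_Sham, AU_iTBS and AI_Sham, whereas Y_iTBS and AI_iTBS held no value under -0.13. Repeat arrays of the same RNA differed from the first array by -0.60 to 0.12 over 3 hippocampal pairs, which came from only 2 animals (Y_Sham 3 and AI_iTBS 2).

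In sham animals Cyp11b1 was 5.82 ± 2.25 (SD, n = 12) log2 units lower in hippocampus than in cortex, which ranked it 2 among named probes higher in cortex, between LOC103691814 (-6.28) and Cd200r1. With dim spots set to the lowest signal well above background on their array, which touched 4 of the 12 sham hippocampi, cortex was at least 40.7-fold higher in sham animals. In stimulated animals the difference (hippocampus minus cortex) was -4.39 ± 1.82 (SD), with a range from -8.02 in AU_iTBS 2 to -2.47 in Y_iTBS 2 and a standard error of 0.51 (limma, adjusted p = 7.97e-07). It was lower in hippocampus in 12 of 12 stimulated animals. The mean corresponds to a 21.0-fold lower signal, or to at least 19.0-fold with dim spots set in the same way. Within the first scan batch (15 animals in the fit, sham included) the difference in stimulated animals was -3.53. Within the later scan batches (9 animals, sham included) it was -5.60. The latter rests on the stimulated animals Y_iTBS 1, AU_iTBS 1, AU_iTBS 2, AU_iTBS 3 and AI_iTBS 1. Hippocampus was not well above background in AU_iTBS 1 and AU_iTBS 2. In all of these but AU_iTBS 3 the regions were scanned in different batches.

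Cd200r1 was measured by 2 probes, on a curated transcript (NM) and on a predicted one (XM), and both were well above background on 27 of 27 cortical arrays. The level of the NM probe in cortex lay between -0.71 and 0.71 in sham animals (median 0.27) and between -1.09 and 0.74 in stimulated animals (median 0.21). The XM probe lay between -1.09 and 1.45 (median 0.62) and between -0.91 and 1.48 (median 0.44) in the same order. The lowest stimulated value of both probes was that of AI_iTBS 2, and the lowest sham value of both was that of AU_Sham 1. In hippocampus the NM probe was well above background on 3 of 27 arrays and the XM probe on 1 of 27, so that a hippocampal level was mostly a bound.

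The signal of Cd200r1 was higher in cortex in every animal by both probes. In sham animals the difference (hippocampus minus cortex) was -3.75 ± 0.92 (SD, n = 12) for the NM probe and -4.44 ± 0.99 for the XM probe. By measured signal the XM probe stood just inside the 3 most skewed to cortex and Gpat2 (-4.32) just outside, an order that rests on hippocampal spots not above background. In stimulated animals the NM probe differed by -3.42 ± 0.72 (SD, standard error 0.21, limma, adjusted p = 4.87e-11) and the XM probe by -4.14 ± 1.12 (SD). The XM probe entered this comparison through its cortical signal alone, so no test is given for it. The NM probe only just met the filter in hippocampus (3 of 24 animals). Its SD and test thus rest mostly on hippocampal spots not above background. With dim spots at the lowest signal well above background, cortex was at least 7.32-fold higher by the NM probe and at least 8.58-fold higher by the XM probe in stimulated animals, and at least 7.60-fold and 10.8-fold higher in sham animals. The hippocampal arrays well above background were 2 of 13 and 1 of 13 in stimulated animals and 1 of 14 and 0 of 14 in sham animals. Over the deviations of the 24 animals from their group means, the probes correlated with each other at r = 0.69 in cortex and r = 0.42 in hippocampus.

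**Figure D2:**
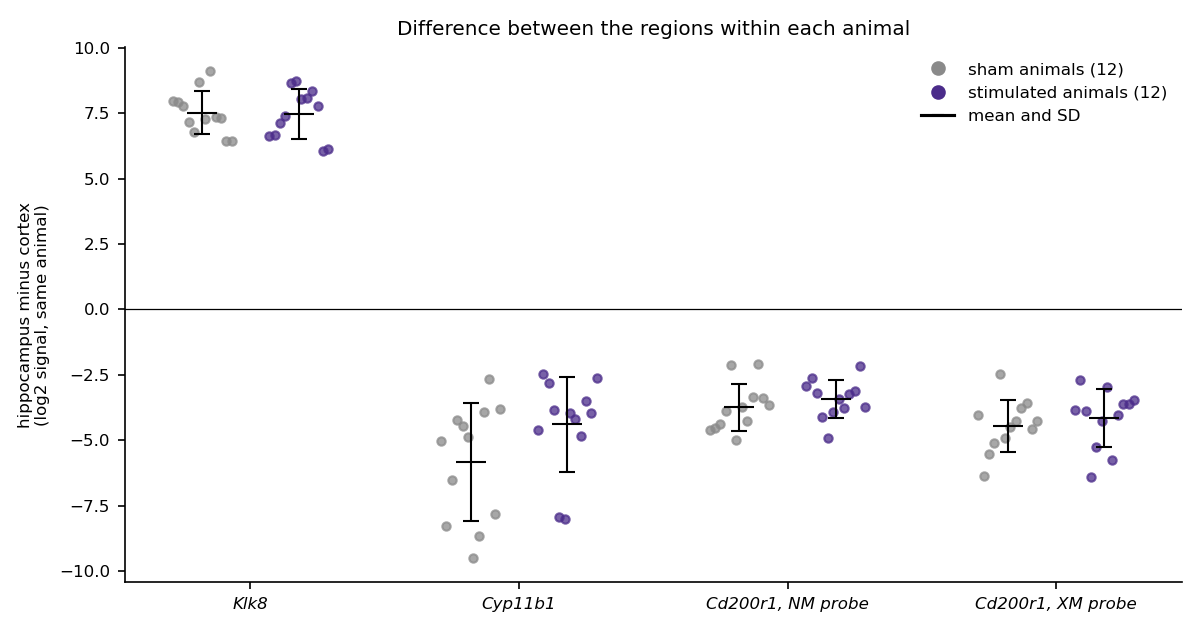
Hippocampus minus cortex difference in log2 signal within each animal (vertical axis) for the 4 probes (horizontal axis), in sham and stimulated animals. Bars are the mean and SD of 12 animals. All points of Klk8 lie above 6 and all points of the other probes below -2, with the widest spread for Cyp11b1 (SD 2.25 in sham and 1.82 in stimulated animals).

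Klk8, Cyp11b1 and the NM probe of Cd200r1, which passed the filter in both regions, were called in stimulated animals, against 34% of probes overall. The difference between the regions was then compared between age classes and between stimulated and sham animals. No member probe was called in either comparison, where 0.0269% and 0% of all probes were called. The change of the regional difference with age was 0.14 for Klk8 (95% interval -0.43 to 0.70) and -0.42 for Cyp11b1 (-2.04 to 1.20). The change with stimulation was -0.19 for Klk8 (95% interval -0.72 to 0.35) and 1.63 for Cyp11b1 (0.10 to 3.16, limma, adjusted p = 1.00). For the probes of Cd200r1 these changes lay between 0.34 and 0.70. The change of Cyp11b1 with stimulation was 2.33 within the first scan batch and 0.11 within the later ones. The sham values in the comparison with stimulation are those that chose the members for a wide difference. That choice alone can leave a smaller difference in stimulated animals, so these changes and their intervals are not free of it.

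Within each region, iTBS was compared with sham in young, aged, AU and AI animals, aged with young animals, and AI with AU animals. Klk8, Cyp11b1 and the NM probe of Cd200r1 entered every comparison and the XM probe was tested in cortex only, since in hippocampus it was well above background in 1 animal. No member probe was called by limma in any of the 12 comparisons. Of all probes, 0% were called in each iTBS comparison, 0.548% and 0.416% for age in hippocampus and cortex, and 0.0031% and 0% for AI against AU animals. At an unadjusted p under 0.05, 6 differences of member probes passed within a region, and 1 further difference was the one between regions given above. Of all probes, 4.54% passed this lower threshold in the young iTBS comparison in hippocampus, and for AI against AU animals 6.65% did in hippocampus and 9.71% in cortex.

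The young iTBS comparison in hippocampus gave 2 of these. Its Y_Sham values were among those that chose the members, and that choice alone can widen their difference from Y_iTBS. Cyp11b1 was 2.64 log2 units higher in Y_iTBS than in Y_Sham (standard error 1.26, limma, adjusted p = 0.93), and the groups overlapped. The NM probe of Cd200r1 read -3.05, -2.86, -3.04 and -3.65 in Y_iTBS and -4.30, -3.90, -3.98 and -3.70 in Y_Sham, a difference of 0.82 (standard error 0.35, limma, adjusted p = 0.93). These groups did not overlap, but 0 of 10 arrays in them were well above background, so that neither group had a measured level. Klk8 in the same comparison differed by -0.26 (standard error 0.13, limma, adjusted p = 0.93).

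The comparison of AI with AU animals gave the other 4. In cortex Klk8 was 1.12 log2 units higher in AI animals (standard error 0.32, limma, adjusted p = 0.38). The cortical values of Klk8 were -1.01, -2.54, -1.05 and -2.98 in AU_Sham and -2.50, -2.58, -2.19, -1.92 and -2.11 in AU_iTBS. They were -1.36, -1.77, -0.67 and -0.46 in AI_Sham and -2.21, 0.07 and -0.42 in AI_iTBS, so that the classes overlapped. The difference was 1.53 within the first scan batch and -0.07 within the later scan batches, where 2 AI animals and 4 AU animals remained. The hippocampus markers differed in the same directions, with a median of 0.22 in cortex (12 of 17 higher in AI animals) and -0.18 in hippocampus (2 of 17 higher), none of them called, and their part in the Klk8 differences was not tested. In hippocampus Klk8 was lower by 0.28 in AI animals (standard error 0.09, limma, adjusted p = 0.68). Cyp11b1 was higher by 2.38 (standard error 0.90, limma, adjusted p = 0.71). The NM probe of Cd200r1 was higher by 0.61 (standard error 0.25, limma, adjusted p = 0.72). This probe was well above background in 0 of 4 AU_Sham, 1 of 5 AU_iTBS, 1 of 4 AI_Sham and 1 of 3 AI_iTBS hippocampi. Neither class thus had a measured level in most animals.

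The order of the 6 group means within a region was narrow for the bright region of each gene. Hippocampal Klk8 means ran from 5.81 in AI_iTBS to 6.12 in Y_Sham, and cortical Cyp11b1 means from 4.36 in AU_Sham to 4.55 in AU_iTBS. Of the 40 steps between neighbouring group means over the 4 probes and both regions, 3 were wider than the larger SD of the pair. These were the steps from Y_iTBS to AU_Sham for Klk8 in hippocampus (0.21), from Y_Sham to Y_iTBS for Klk8 in cortex (0.48) and from AI_Sham to Y_Sham for the XM probe of Cd200r1 in cortex (0.51).

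Levels of region markers varied between animals in the region where each member was dim. The mean level of the 16 cortex markers in hippocampal arrays ranged from 2.28 in AU_Sham 4 to 2.99 in Y_iTBS 3, and Cyp11b1 read -4.46 and 1.58 in these animals. By group, this mean was 2.60 in Y_Sham (range 2.42 to 2.73), 2.89 in Y_iTBS (2.78 to 2.99), 2.52 in AU_Sham (2.28 to 2.73), 2.62 in AU_iTBS (2.43 to 2.74), 2.68 in AI_Sham (2.41 to 2.97) and 2.71 in AI_iTBS (2.63 to 2.82). The marker mean was thus higher in all 4 Y_iTBS animals than in all 4 Y_Sham animals. Over the 24 animals Cyp11b1 and the marker mean correlated at r = 0.89 and rho = 0.81 (permutation p = 1e-05 for each, the smallest that 100000 permutations can give, adjusted over 4 relations 4e-05). Levels were used without centering on group means, and animals were permuted across groups. Differences between groups therefore enter r and p, here and in the relations below. Without the 2 animals farthest from the median the correlation was r = 0.88 (n = 22). It was r = 0.94 within the first scan batch (n = 15) and r = 0.80 within the later ones (n = 9, both without a test). Over the 18 animals with Cyp11b1 well above background it was r = 0.70 and rho = 0.56 (two-sided permutation p = 0.0011 and 0.015), and there it was r = 0.87 in the first scan batch (n = 12) and r = -0.25 in the later ones (n = 6).

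The corresponding values for the other members were weaker. Klk8 in cortex and the mean of 16 hippocampus markers there, which ranged from 2.75 in Y_Sham 2 to 3.38 in AI_Sham 4, correlated at r = 0.53 and rho = 0.49 (n = 24, two-sided permutation p = 0.0070 and 0.018, adjusted 0.014 and 0.036). Without the 2 animals farthest from the median this was r = 0.41, and within the first and later scan batches r = 0.54 and r = 0.37. The Cd200r1 probes in hippocampus correlated with the cortex marker mean at r = 0.44 for the NM probe and r = 0.29 for the XM probe (n = 24, permutation p = 0.032 and 0.16, adjusted 0.042 and 0.16), at signals mostly not above background. Htr5b, which the same sham values had picked, was left out of the marker mean. The part of the marker levels in the iTBS and AI differences of the members was not tested.

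**Figure D3:**
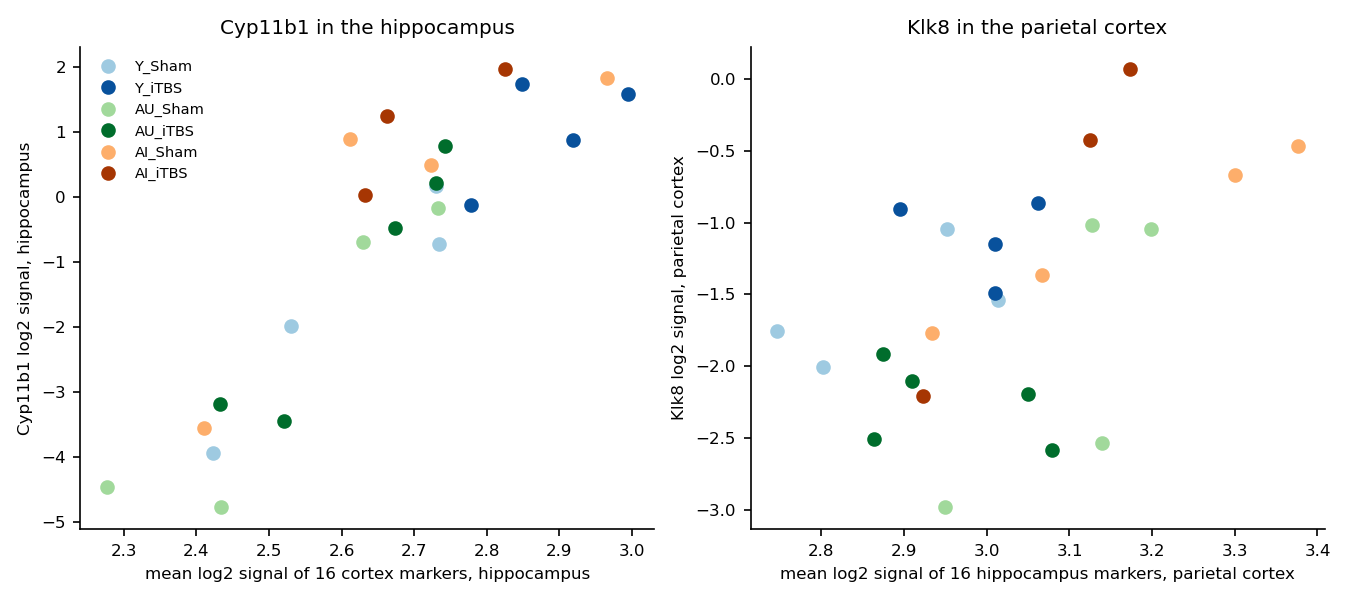
Left, Cyp11b1 in hippocampus (vertical axis, normalized log2 signal) against the mean log2 signal of 16 cortex markers on the same hippocampal arrays. Right, Klk8 in parietal cortex against 16 hippocampus markers on the same cortical arrays. Each point is 1 of 24 animals, coloured by group, and Cyp11b1 spans -4.78 to 1.97 while the cortex marker mean spans 2.28 to 2.99.

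The genes whose pattern was most like each member were ranked by Pearson correlation of the deviations from group means over 24 animals, which share arrays and sample preparation. In hippocampus Klk8 was most like Inpp5j (r = 0.86), Mmp17 (0.84), Gnptg (0.82), Icam5 (0.81) and Itpka (0.80), and in cortex Cyp11b1 was most like Slc24a2 (0.84), Rasl11b (0.81), Zc3h14 (0.80), Pxylp1 (0.79) and Osbpl3 (0.79). In cortex the NM probe of Cd200r1 was most like Plcb4 (0.88), Slc24a2 (0.84), Zfp867 (0.83), Ddx1 (0.82) and Pip4p2 (0.82), and the XM probe like Dnajc21 (0.90), Slc37a1 (0.86), Fbn2 (0.85), Oip5-as1 (0.83) and Syndig1 (0.82). Over all 48 values, where the regions set most of the likeness, the nearest were Fibcd1, Cabp7 and LOC102555817 for Klk8 (r = 0.99 each) and Rgs4, Gkn2 and LOC103691814 for Cyp11b1 (r = 0.98 each). Efna5 was nearest to both Cd200r1 probes (r = 0.97 each).

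The same ranking was made in the region where Klk8 and Cyp11b1 were dim, a choice made after their values were seen. In hippocampus Cyp11b1 was most like Gkn2 (r = 0.97), Tcap (0.95), Rgs4 (0.95), Bmper (0.95) and LOC103691814 (0.94), and each of these was called lower in hippocampus than in cortex in stimulated animals, with differences from -1.51 (Tcap) to -5.03 (LOC103691814). Rgs4 encodes a regulator of G protein signaling, and its hippocampal level ranged from 4.12 to 6.98. Of the 100 probes most like Cyp11b1 in hippocampus, 82 were called higher in cortex and 5 in hippocampus, where 15.7% and 18.4% of all probes in that ranking were. In cortex Klk8 was most like Fibcd1 (0.79), Lbhd2 (0.74), Ankrd24 (0.71), Irf5 (0.70) and Fermt1 (0.69), and 45 of the 100 most like probes were called higher in hippocampus and 8 in cortex, where 17.2% and 16.8% of all probes were.

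Klk8 lies in the kallikrein cluster, and its neighbours in the gene order of the RefSeq assembly GRCr8 were compared in stimulated animals. Klk7 and Klk6, which encode related secreted proteases, follow it on one side, and Klk6 was higher in hippocampus by 1.00 (standard error 0.15, limma, adjusted p = 1.97e-05). Klk7 had only a bound in cortex and was at least 1.31-fold higher in hippocampus. Klk9 (-0.07) and Klk11 (0.29), on the other side, were not called. Klk7 in cortex was well above background in 1 animal, Y_iTBS 2, which read 2.14 while no other animal read above -4.46. Of 20 kallikrein genes listed, 17 had a probe and 8 were tested. Of these, 4 were called higher in hippocampus and 0 lower, where 17.8% of all probes were called higher and 16.2% lower. The median of the 8 was 0.65, which includes Klk8 and Klk7, and that of all probes was 0.01. The called ones were Klk8, which chose the list, Klk7, which passed the filter through hippocampus alone, Klk6 and Klk1c10 (1.48). Klk1c10 was well above background in 2 of 12 stimulated cortices and was at least 1.45-fold higher in hippocampus.

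Genes listed as substrates or partners of neuropsin, or as otherwise linked to it, did not share its skew as a set. Of 9 genes tested, 2 were higher in hippocampus and 5 were higher in cortex, with a median of -0.38. Among all probes 17.8% and 16.2% were called in these directions. F2rl1, a receptor opened by serine proteases, was higher in cortex by 2.25 (hippocampus minus cortex -2.25). It was well above background in 2 of 12 stimulated hippocampi, which gave a bound of at least 3.81-fold. Nrg1, the neuregulin ligand, was higher in cortex by 1.52 (-1.52), and L1cam, an adhesion molecule, by 0.44 (-0.44). Fkbp5, a co-chaperone of steroid receptors that is in the list as a linked gene, was 0.81 log2 units higher in hippocampus. Ephb2, a receptor kinase that neuropsin cleaves, differed by 0.02 and was not called. Its probe was dim in both regions, well above background in 16 of 24 hippocampi and 13 of 24 cortices. Of 17 other extracellular proteases and inhibitors, 6 were higher in hippocampus and 2 lower, with a median of 0.21. The lower ones were the matrix metalloproteinases Mmp9 (-1.98) and Mmp3. Mmp3 was well above background in 1 of 24 hippocampi and at least 3.37-fold higher in cortex. Mmp9 was above background in 7 of 12 stimulated hippocampi and at least 3.07-fold higher in cortex. Serpina3n, a protease inhibitor, was the highest by measured signal (1.60). It was above background in 6 of 12 stimulated cortices and at least 2.03-fold higher in hippocampus.

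Cyp11b1 stands near Cyp11b3, Cyp11b2 and Cyp11b2l1 in the GRCr8 order, closely related genes whose probes may take up each other's transcripts. No probe was matched to Cyp11b2l1. Cyp11b2 and Cyp11b3 had 2 probes each, and they disagreed. A Cyp11b3 probe was -3.36 (standard error 0.17, limma, adjusted p = 3.13e-12) in hippocampus minus cortex, well above background in 24 of 24 cortices and 19 of 24 hippocampi. A Cyp11b2 probe, above background in 24 of 24 cortices and 2 of 24 hippocampi, was at least 6.85-fold higher in cortex. The other Cyp11b2 probe was above background in 1 of 24 cortices and 0 of 24 hippocampi and was not tested, and the other Cyp11b3 probe differed by 0.44 (adjusted p = 0.47). Which of these genes gave the cortical signal was thus not settled by these probes.

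**Figure D4:**
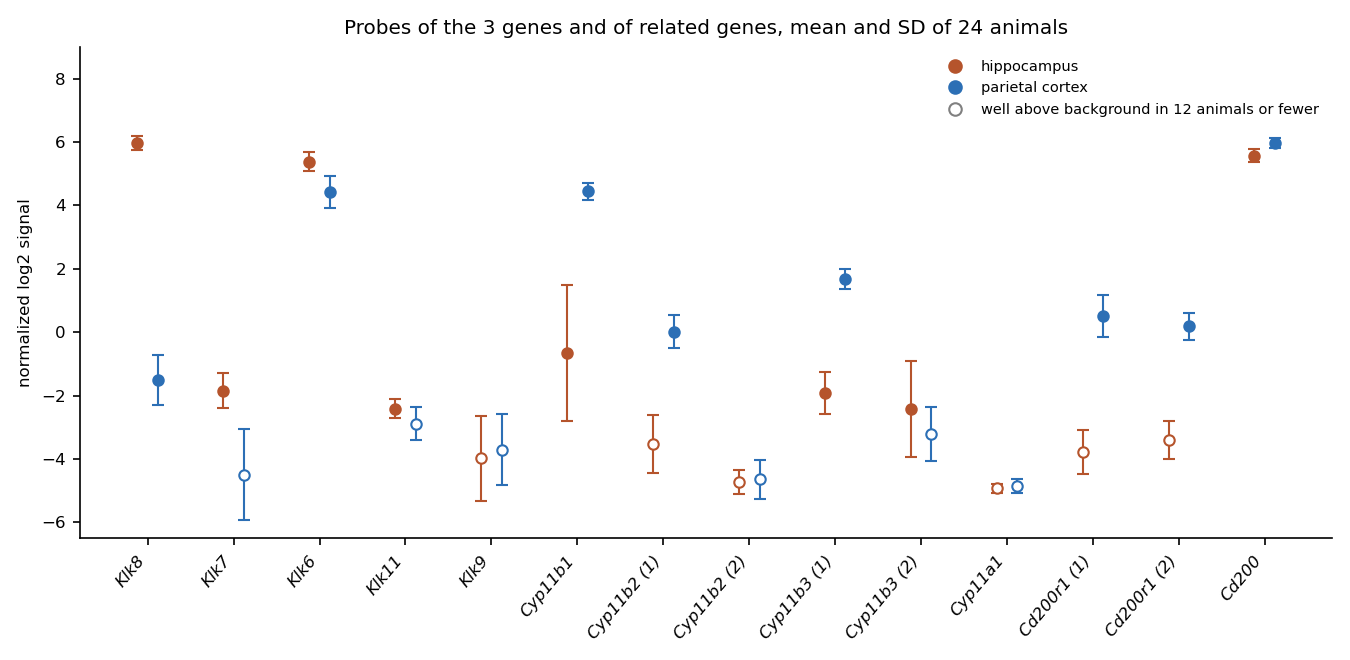
Mean and SD of normalized log2 signal over 24 animals (vertical axis) for probes of the 3 genes and of related genes (horizontal axis), in hippocampus and parietal cortex. Numbers in brackets separate probes of 1 gene, ordered by cortical mean, and open points were well above background in 12 animals or fewer. The brighter probes of Cyp11b2 and Cyp11b3 share the cortical skew of Cyp11b1, their other probes do not, and Cyp11a1 is at background in both regions.

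The genes of earlier steps of steroid synthesis did not share the cortical level of Cyp11b1. Cyp11a1, which makes the first steroid of the pathway from cholesterol, was well above background in 0 of 24 hippocampi and 0 of 24 cortices. Star, which brings cholesterol into mitochondria, was above background in 4 hippocampi and 0 cortices and differed by -0.38 (adjusted p = 0.26). Of 19 genes of steroid synthesis tested, 6 were higher in hippocampus and 4 in cortex, with a median of -0.06. Among all probes 17.8% and 16.2% were called in these directions. The count and median include Cyp11b1, which chose the list, and Cyp11b2, which passed the filter through cortex alone. Apart from the Cyp11b genes, the 1 called higher in cortex was Srd5a2 (-0.62), and Cyp7b1 (0.96), a hydroxylase of neurosteroids, was the most skewed to hippocampus. Of 10 genes of corticosteroid receptors and handling, 5 were higher in hippocampus and 1 in cortex. These included Nr3c2, the mineralocorticoid receptor, which was 1.84 log2 units higher in hippocampus, Nr3c1, the glucocorticoid receptor (0.21), and Abcb1b, an export pump (2.87), while Crhr1, a receptor of corticotropin-releasing hormone, was -2.11.

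The ligand of Cd200r1 differed little between the regions. Cd200 was lower in hippocampus by 0.34 (standard error 0.06, limma, adjusted p = 0.000264), with levels between 5.13 and 5.85 in hippocampus and between 5.70 and 6.22 in cortex. Of 11 tested genes of CD200 and related inhibitory signaling other than Cd200r1, 1 was higher in hippocampus and 4 were higher in cortex, with a median of -0.15. The widest of these was Inpp5d (-1.42), a lipid phosphatase recruited by inhibitory receptors of blood cells, followed by Cx3cl1 (-0.40), a chemokine of neurons. Dok1 (0.42), an adaptor below the receptor, was the one higher in hippocampus. By the same test 17.8% of all probes were called higher in hippocampus and 16.2% in cortex. Microglia markers did not follow the receptor. Of 18 tested, 6 were higher in hippocampus and 0 in cortex, with a median of 0.22, and the called ones included Ly86 (0.44), Itgam (0.38) and Sall1 (0.33). Cx3cr1, a receptor of microglia, differed by -0.05 (adjusted p = 0.78). Of 10 markers of border macrophages and blood immune cells, 1 was called, the T cell gene Cd3e, which was well above background in 1 of 24 cortices and at least 8.37-fold higher in hippocampus, while Cd3g of the same receptor complex differed by 0.08 (adjusted p = 0.84). The neighbours of Cd200r1 that were tested lay between -0.30 (Nepro) and 0.51 (Ccdc80).

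Markers of other tissue parts were counted by the same rule. Among all probes 17.8% were called higher in hippocampus and 16.2% lower in stimulated animals, and 19.4% and 16.8% in sham animals. Of oligodendrocyte markers, 9 of 10 were higher in hippocampus and 1 was lower in stimulated animals. Of choroid plexus markers, 5 of 14 were higher and 2 lower in stimulated animals, and 9 and 2 in sham animals. Of markers of meninges and fibroblasts, 2 of 11 were higher and 0 lower in stimulated animals, a share near that of all probes, whereas in sham animals 1 was higher and 6 were lower (median -0.70). The regional difference of these 11 was larger in stimulated than in sham animals for 11 of 11 (median 0.95). In the cortex of young animals iTBS minus sham was below 0 for 11 of 11 (median -0.96). In either comparison 0 of them were called, as were 0% of all probes. Markers of the same tissue can rise and fall together, so these counts are not 11 separate results. The mean level of the 14 choroid plexus markers ranged from -0.97 to 2.99 over hippocampi and from -1.48 to 1.08 over cortices. Their part in the regional differences of the members was not tested.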

How the data were processed

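Total RNA was labeled with 1 dye by the authors and hybridized to Agilent SurePrint rat arrays. The authors deposited scanner files of Feature Extraction 12.0.3.1 with the processed signal intensity of each spot, without normalization between arrays, and a table of standard scores (z-scores, a score per feature of its log signal), given to 2 decimals. Here log2 processed intensity, computed from the deposited intensity, was averaged over copies of a probe. It was converted to z-scores per array over non-control probes, and these were brought back to log2 units with the average array SD (4.08). Spots flagged as outliers were left out. No depth applies to arrays, and the number of animals limits the precision.

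Transcript identifiers were matched without version to RefSeq names of the rat assembly GRCr8, and 46.3% of probes carried a symbol. No coordinates are given, because the array design uses another build. The promoters of the 3 genes are not shown.

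Groups came from the sample titles. The hippocampus and cortex of an animal were paired by the title number and the animal code. Repeat arrays were averaged with the first, except one whose correlation with its own first array was under 0.5. A hippocampal array with conflicting title and description entered no comparison. Probes were tested if well above background in at least 3 animals (32291 in hippocampus, 32422 in cortex, 33518 between regions). limma 3.58.1 in R 4.3.3 was fitted to 6 group means with 24 animals per region, or to the within-animal differences of the regions, two-sided, with Benjamini-Hochberg adjustment over all probes tested and a threshold of 0.05. Each gene of a list was represented by its brightest probe. The 3 genes, the gene lists and the tests were chosen with earlier results of these data known. By rule, the text names all probes of the 3 genes, up to 3 called genes with the widest difference and the direct partners in each list, and the most similar genes. Klk9, Klk11, Srd5a2, Cyp7b1, Dok1, Cx3cr1 and Cd3g were named after their values were seen. Nothing in the labels says how animals were batched beyond the scan times of the files. Alternatives were other scalings, background corrections, filters, treatments of repeats, blocks for slide, scan batch and replicate number, subsets by scan batch, the selection rule of the study's methods and each animal left out in turn. The blocks for slide, scan batch and replicate number were fitted within regions only, not to the difference between regions.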

Additional observations from a re-analysis of the deposited data

Results flagged for a closer look

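Klk8 in the hippocampus of AU_iTBS 3 was 5.85, apart from the other 4 AU_iTBS animals, which lay between 6.14 and 6.23. It was the 1 value set apart among 60 combinations of probe, measure and group searched, where the 95% critical value used sets apart about 1 in 20 by chance. In cortex, Klk8 was above the sham mean in all 4 Y_iTBS animals (by 0.48 on average) and below it in all 5 AU_iTBS animals (mean -0.36). The difference between these effects was not tested.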

How the results depend on the processing

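The regional difference in stimulated animals was called for Klk8, Cyp11b1 and the NM probe of Cd200r1 under all 12 alternatives run for it. None of these had a block for slide or scan batch. First arrays of hippocampus and cortex lay mostly on different slides, so a part of slide in the difference cannot be told apart. Animals of the later scan batches, except AU_iTBS 3, had their regions scanned in different batches. The same held with each of the 24 animals left out, which gave 7.36 to 7.60 for Klk8 and -4.57 to -4.06 for Cyp11b1. The NM probe gave -3.53 to -3.28. The XM probe, which passed the filter through cortex alone and is given without a test, gave -4.28 to -3.94. No member probe was called in any other comparison under any alternative run. Background correction by normexp, computed on the median spot signal because no mean signal was at hand, lowered the differences in sham animals to 6.16 for Klk8, -1.54 for the NM probe and -1.77 for the XM probe of Cd200r1, and those in stimulated animals to -1.47 and -1.57 for Cd200r1. The offset of 50 added to every spot compresses dim signals by construction. The deposited standard scores, whose SD is taken over all features with controls, gave 6.55 for Klk8 in sham animals. With each dim spot set to its array's lowest measured signal, chosen after seeing the data, the XM probe was -3.44 in sham animals. Klk8 in AI minus AU cortex was -0.065 within the later scan batches. The cause was not tested. Of 43 other differences of members, 114 of 1571 values under alternatives changed sign and 0 passed the adjusted threshold.

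The selection rule of the study's methods picked 0 member probes and between 12 and 59 probes per iTBS comparison, where limma called 0 (594 to 2705 at an unadjusted p under 0.05). Counts of all probes called ran from 0 to 271 for age in hippocampus (177 as reported), from 22 to 298 for age in cortex (135), from 0 to 17 for AI against AU in hippocampus (1), from 0 to 20 for it in cortex (0) and from 0 to 16 for age and region together (9). For iTBS they reached at most 104 (AU in cortex, within the later scan batches). With the replicate number as a block, 0 member probes were called within a region. The fit with no replicate block ignores the pairing of regions by animal. There Klk8, Cyp11b1 and the NM probe of Cd200r1 were called between regions. Deviations of same-numbered stimulated and sham animals correlated at r = -0.08 to 0.38 over 11 pairs in hippocampus and -0.27 to 0.37 in cortex. The 3 AI pairs in cortex were all above 0.1 (0.36, 0.37 and 0.13), where the block called 1 probe and no member. Elsewhere not every pair was, and the numbers were not taken to pair animals.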

Other observations

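A hippocampal array whose title and description name different animals was placed in no group. It read 6.15 for Klk8 and 0.18 for Cyp11b1, both well above background, and -3.35 and -4.86 for the NM and XM probes of Cd200r1, both not well above background.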
